A study of Mus musculus with 29 samples.

Results

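A set of 10 transcriptional regulators of fat cell formation was followed in cultured stromal vascular fraction (SVF), the non-adipocyte cells released when white fat is digested: Pparg, Cebpa, Cebpb, Cebpd, Zfp423, Ebf1, Ebf2, Klf4, Klf15 and Nr1h3. They were chosen by name, as the rows of the count table whose Ensembl ID carries one of these symbols, and all 10 were found among 56953 features. The SVF came from inguinal (iWAT, subcutaneous) and perigonadal (pgWAT, visceral) fat of adult C57BL6/J mice of each sex. All groups shared 4 days of growth in PM1 medium with 1 nM basic FGF, and no arm without it was compared. Smart-seq3 RNA libraries, a full-length protocol, were made from 29 wells, of which the labels put 10 in iWAT male and 9 in iWAT female, and 4 in pgWAT male and 6 in pgWAT female. The study's methods state other group sizes for these cultures than the labels, and the labels were used. Those methods describe wells as technical repeats of a small number of experiments, and the labels do not tell which well belongs to which, so p-values here measure the spread between wells and not between mice.

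Adipocyte formation is known to run through a cascade. Cebpb and Cebpd (C/EBPβ and C/EBPδ) are early factors, and Pparg and Cebpa are the later factors that maintain each other and switch on the genes of fat storage. Zfp423, Ebf1 and Ebf2 mark or commit preadipocytes, Ebf2 being known above all for the beige and brown programme. Klf4 is known as an early inducer of Cebpb, Klf15 as a later, glucocorticoid-responsive factor, and Nr1h3 encodes the oxysterol receptor LXRα. Cebpa, Klf4, Pparg and Nr1h3 are also known in macrophages, and the cultures were a mixture of cells.

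Total counts per well ran from 315316 to 1102234, and the level that a well without a count could still hide, 3 counts, came to between 2.58 and 9.76 CPM (a gene's counts scaled to the size of its library) in individual wells. Such limits cover counting error only. Depot labels were matched by the depot factors Tbx15 and Tcf21 in all wells. Of the sex-linked transcripts, all 19 iWAT wells matched the label, whereas 5 of 10 pgWAT wells did not. Male replicates 2 and 4 held Xist (24 and 60 counts), female replicates 2 and 3 held Y-linked counts (23 and 26) and no Xist, and female replicate 1 held both (7 and 10). Sex contrasts in pgWAT are therefore given by label, with and without these wells. Fibroblast markers were high in all groups (summed CPM 6387 to 22690 over 6 genes). The sum of 12 macrophage and leukocyte markers was 2017 ± 354 CPM in iWAT male (SD, n = 10) and 910 ± 167 in iWAT female (SD, n = 9), without overlap. Most of the sum was 1 gene, Lyz2, with means of 1670 CPM in iWAT male, 705 in iWAT female, 3786 in pgWAT male and 1530 in pgWAT female. In pgWAT the sum was above every iWAT well in 4 wells, male replicates 1 (7723) and 3 (8270) and female replicates 2 (3616) and 3 (3484), and between 805 and 2385 in the other 6. In bulk cultures, fewer cells of a type and less RNA per cell cannot be told apart.

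Where the members start is shown by the 250 bases before the transcription start in RefSeq (build GRCm38.p6), which covered 8 of the 10 members with 13 windows; Cebpd and Ebf2 had none. Printed are 4 windows. The third Pparg start, known for the adipocyte-rich isoform, and the first Zfp423 start held the letters TTGCNNAA (a C/EBP motif, either strand), and Cebpa and Klf4 are shown for comparison. Capitals mark TTGCNNAA, AGGTCA (a nuclear receptor element) or CACCC (a KLF element) on either strand.
Pparg, the third start (chr6:115421816-115422065, plus strand): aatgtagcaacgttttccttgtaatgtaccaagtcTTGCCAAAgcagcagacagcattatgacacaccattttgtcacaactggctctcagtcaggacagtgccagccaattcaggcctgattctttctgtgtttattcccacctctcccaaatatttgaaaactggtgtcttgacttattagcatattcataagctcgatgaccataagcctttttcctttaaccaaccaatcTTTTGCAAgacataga
Zfp423, first start (chr8:87959596-87959845, minus strand): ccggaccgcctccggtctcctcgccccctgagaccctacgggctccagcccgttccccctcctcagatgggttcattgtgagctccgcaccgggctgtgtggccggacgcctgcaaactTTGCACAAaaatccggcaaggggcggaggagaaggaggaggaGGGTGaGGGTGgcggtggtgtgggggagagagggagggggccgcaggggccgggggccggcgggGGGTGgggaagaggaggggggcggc
Cebpa (chr7:35119043-35119292, plus strand): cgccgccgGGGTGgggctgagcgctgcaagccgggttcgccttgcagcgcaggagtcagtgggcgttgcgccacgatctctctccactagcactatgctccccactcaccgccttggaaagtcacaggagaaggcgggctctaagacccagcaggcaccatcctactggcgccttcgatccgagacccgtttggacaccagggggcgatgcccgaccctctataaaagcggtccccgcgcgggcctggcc
Klf4 (chr4:55532476-55532725, minus strand): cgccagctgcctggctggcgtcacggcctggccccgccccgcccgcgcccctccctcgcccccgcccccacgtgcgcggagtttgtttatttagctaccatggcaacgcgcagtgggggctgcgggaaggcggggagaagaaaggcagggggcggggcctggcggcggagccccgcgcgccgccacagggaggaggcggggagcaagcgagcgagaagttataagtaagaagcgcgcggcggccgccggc

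The letters TTGCNNAA were found 2 times in the third Pparg window and 1 time in the first Zfp423 window, so in 2 of the 13 windows, against 9.6% of all 32851 promoter windows of the same length. AGGTCA was present in 14.0% and CACCC in 52.0% of all windows. AGGTCA stood in the first and second Pparg windows and the second Zfp423 window, and the Klf4 window held none of the 3 motifs. The windows also differed in composition, with 40.8% G and C in the third Pparg window and 82.4% in the first. Annotated exons covered all 250 bases of the first Ebf1 window. They covered 193 and 57 bases of the first and second Pparg windows and 35 and 116 of the Nr1h3 windows. The 2 Nr1h3 windows overlapped each other. No exon base lay in the windows printed. A match is a run of letters and not a bound site, and counts per gene do not tell from which start a transcript came.

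The 10 members differed widely in level, and their order changed with the depot. Per kilobase of exon, Pparg led in iWAT at 13.8 ± 7.60 CPM per kb (SD, n = 19), followed by Nr1h3 (9.49 ± 6.03) and Ebf2 (8.48 ± 2.23). In pgWAT Nr1h3 led at 11.6 ± 7.20 CPM per kb (SD, n = 10), followed by Klf4 (7.95 ± 2.56) and Cebpa (5.57 ± 4.71), while Pparg stood at 3.87 ± 2.37 and Ebf2 at 3.40 ± 1.71. The early C/EBP genes were low in both depots, Cebpb at 2.50 ± 1.89 CPM per kb in iWAT and 3.69 ± 3.09 in pgWAT, and Cebpd at 0.646 ± 0.757 and 1.73 ± 1.28. Klf15 was at the bottom of the order, at 0.211 ± 0.336 CPM per kb in iWAT and 0.578 ± 1.05 in pgWAT. Most neighbours in either order were closer than the larger of their SDs. The exception was the step from Ebf2 to Ebf1 (5.40 ± 1.47) in iWAT. With the longest transcript as the length, Ebf1 and Ebf2 came to 8.81 and 11.3 CPM per kb in iWAT, and that step fell within the SD. The steps from Ebf1 to Cebpa and from Zfp423 to Cebpd in iWAT then went beyond it, and in pgWAT Ebf1 (7.82) stood above Cebpa (5.59).

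**Figure D1:**
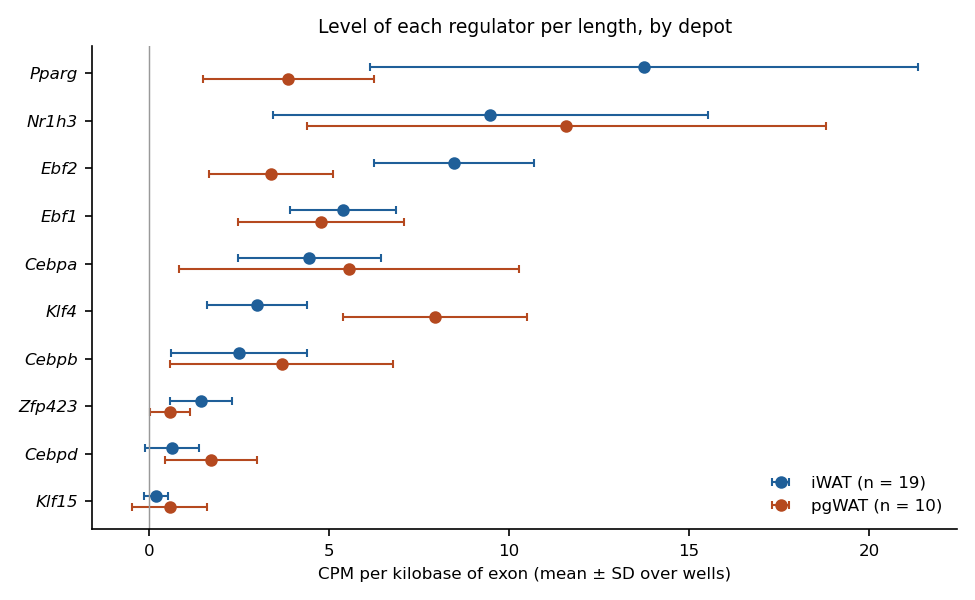
Mean level of each regulator in CPM per kilobase of exon (horizontal axis, bars are SD over wells) in iWAT (19 wells, blue) and pgWAT (10 wells, red), ordered by iWAT. Pparg leads the iWAT order at 13.8 and is at 3.87 in pgWAT, whereas Klf4 is at 3.01 in iWAT and 7.95 in pgWAT.

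The first comparison asked how the depots differ, with the labelled sexes weighted equally. In pgWAT cultures Pparg and Ebf2 were lower and Klf4 was higher than in iWAT. Of the 10 members, 6 passed the filter on low counts and were tested (Pparg, Cebpa, Ebf1, Ebf2, Klf4, Nr1h3), and 3 of these 6 passed an adjusted p of 0.05 (edgeR quasi-likelihood test, Benjamini-Hochberg over 8853 genes), 1 higher and 2 lower. Of all genes tested, 38.1% passed, 20.1% higher and 17.9% lower, so a change between depots was common. Markers of cell types moved with the depot too. Of 5 tested mesothelial markers 4 rose in pgWAT and 1, Krt19, fell (-1.43). Of 4 tested smooth muscle markers 2 rose, as did 5 of 6 fibroblast markers and 2 of 6 endothelial markers. The part of these cells was not tested.

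Pparg (ENSMUSG00000000440.13), the master regulator of adipocyte formation, was lower in pgWAT. In iWAT male it ran from 28.5 CPM over a median of 59.0 to 88.1. In iWAT female the lowest, median and highest values were 7.94, 23.2 and 35.7. The pgWAT male wells 1 to 4 had 12.2, 5.19, 29.2 and 8.57 CPM, and the pgWAT female wells ran from 4.34 over 9.68 to 14.8. All 10 pgWAT wells were below the iWAT mean, although only 2 were below every iWAT well, because the lowest iWAT female wells reached into the pgWAT range. The fitted log2 fold change was -1.61 (SE 0.26, adjusted p = 7.38e-06), that is 3.06-fold lower. It was -2.01 (SE 0.36, adjusted p = 0.000115) among wells labelled male and -1.22 (SE 0.38, adjusted p = 0.0156) among those labelled female. By sex the same 3 members passed in males, where 20.3% of all genes did, and these and Nr1h3 in females, where 26.8% did. The female value was lost with limma-voom (adjusted p = 0.105) and with the plate column of the well as a factor (adjusted p = 0.201). Without the 5 pgWAT wells that went against or between their labels the female value was -1.08 (adjusted p = 0.0984). In that fit the male value was -1.435 (adjusted p = 0.0288) and the value over the sexes -1.256 (adjusted p = 0.00323), both smaller than with all wells.

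Ebf2 (ENSMUSG00000022053.14) had the tightest values of the members in iWAT male, from 49.9 CPM over 69.5 to 82.2. In iWAT female it ran from 25.6 over 46.4 to 57.7. The 4 pgWAT male wells had 50.3, 25.9, 11.1 and 23.6 CPM, and the pgWAT female wells ran from 10.9 over 18.6 to 35.2. In 7 of 10 pgWAT wells Ebf2 was below every iWAT well, and all 10 were below the iWAT mean. The log2 fold change was -1.27 (SE 0.17, adjusted p = 3.78e-07), a 2.42-fold lower level. Among wells labelled male it was -1.37 (adjusted p = 0.000107), and among those labelled female -1.18 (adjusted p = 0.000345). Its relative Ebf1 (ENSMUSG00000057098.15), a factor of early adipogenesis, did not pass the test. Ebf1 averaged 52.7 ± 14.3 CPM in iWAT (SD, n = 19) and 46.7 ± 22.5 in pgWAT (SD, n = 10), with a log2 fold change of -0.22 (95% interval -0.59 to 0.16, adjusted p = 0.395). Its pgWAT wells were uneven, from 22.2 to 87.5 CPM. The highest pgWAT values were those of female replicate 2 (87.5), male replicate 3 (75.0) and female replicate 3 (69.4).

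Klf4 (ENSMUSG00000003032.9) was the member that rose in pgWAT. It ran from 6.49 over 11.2 to 19.6 CPM in iWAT male and from 2.47 over 6.87 to 10.2 in iWAT female. The pgWAT male wells had 33.0, 15.6, 24.99 and 23.6 CPM, and the pgWAT female wells ran from 9.60 over 26.3 to 36.0. Every pgWAT well was above the iWAT mean, and 7 of 10 were above every iWAT well. The log2 fold change was 1.46 (SE 0.20, adjusted p = 5.24e-07), or 2.75-fold higher. It was 1.06 among wells labelled male (adjusted p = 0.00824) and 1.87 among those labelled female (adjusted p = 5e-06). Without the 5 wells that went against or between their labels these values were 1.28 (adjusted p = 0.0157) and 2.03 (adjusted p = 2.04e-05). Over all wells the male value missed the threshold when no low genes were filtered out (adjusted p = 0.0502). Of Klf4's 31-base stretches, 2% also occur in the transcript Gm48640, so a small share of its counts could be split between these genes.

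The same pattern was checked within columns of the library plate, the only technical grouping in the labels. Within column 9 the pgWAT wells were the male replicates 2 and 4 with Xist, so depot and sex cannot be told apart there. Among its wells labelled male the log2 fold change, pgWAT minus iWAT, was -2.98 for Pparg (adjusted p = 3.47e-05), -1.35 for Ebf2 (adjusted p = 0.00305) and 1.06 for Klf4 (adjusted p = 0.213). Within column 8 the female values were -0.55 for Pparg (adjusted p = 0.522), -1.32 for Ebf2 (adjusted p = 0.00243) and 1.86 for Klf4 (adjusted p = 0.00259). Column 10 held 1 iWAT female well and the pgWAT female replicates 1 to 3, all mismatched or mixed, so that missing the threshold there says little. Its values were -1.39 for Pparg (adjusted p = 0.457), -1.20 for Ebf2 (adjusted p = 0.2) and 2.28 for Klf4 (adjusted p = 0.233). The direction was the same in these 3 columns, and among females the Pparg call was lost in both columns 8 and 10.

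**Figure D2:**
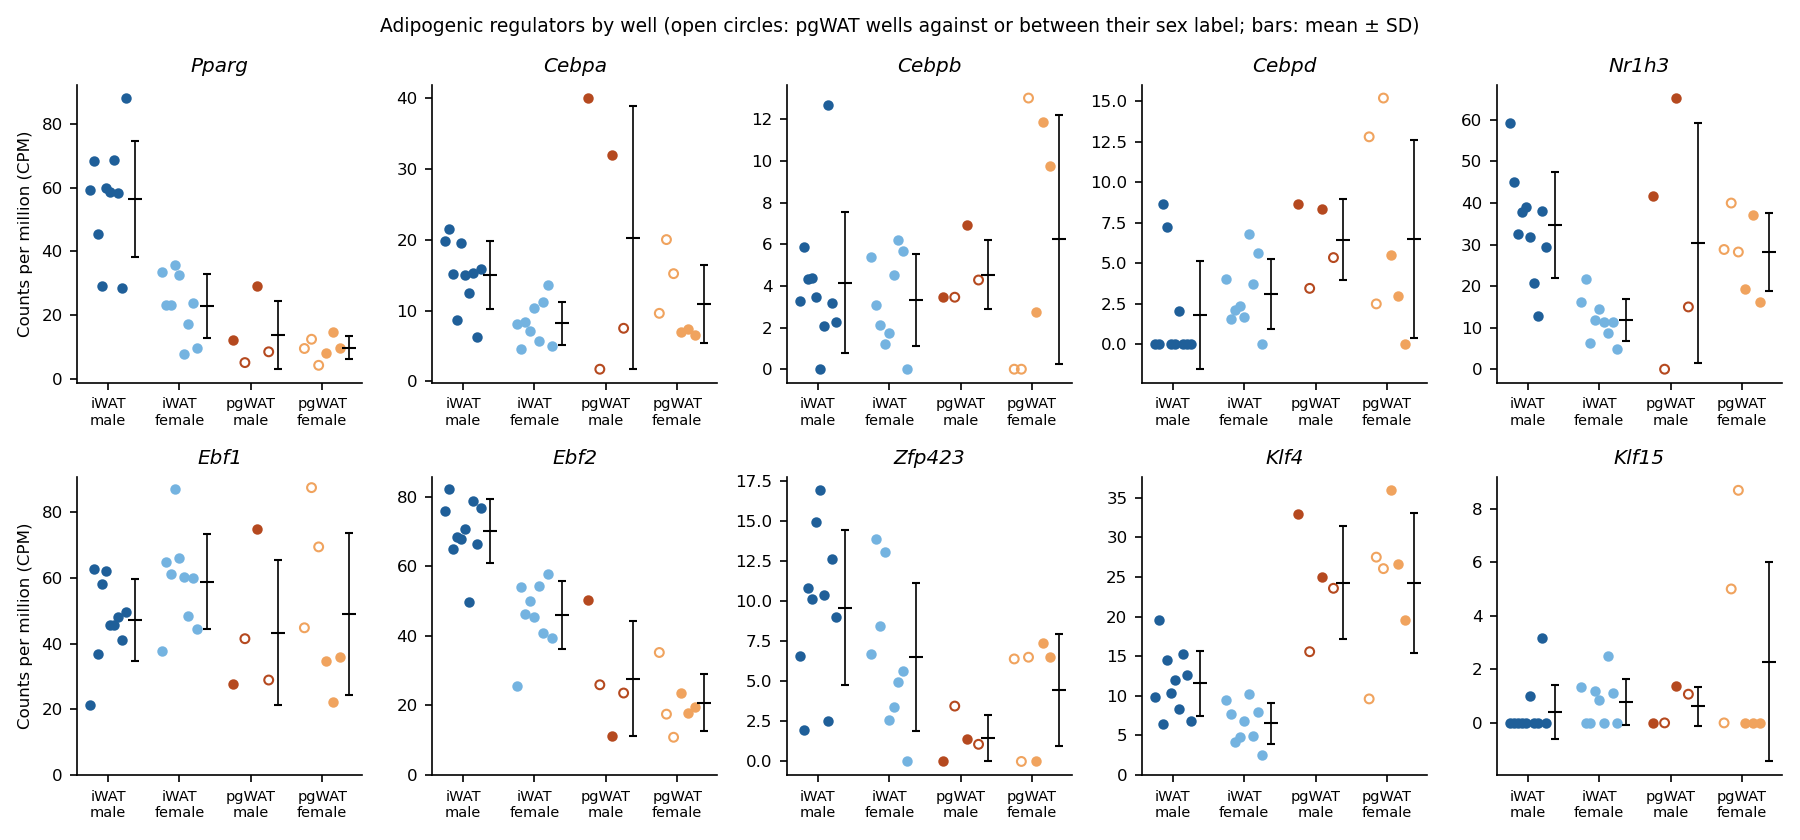
CPM of each regulator (vertical axes, separate scales) in every well of the 4 groups, with mean ± SD beside the points; open circles are the 5 pgWAT wells whose sex-linked transcripts went against or between their label. All 10 pgWAT wells are below the iWAT mean for Pparg and Ebf2 and above it for Klf4, and 2 pgWAT male wells stand high for Cebpa and Nr1h3.

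The depot difference of Cebpa and Nr1h3 depended on which pgWAT wells were counted. Cebpa (ENSMUSG00000034957.11), the partner of Pparg, had 39.9, 1.73, 31.9 and 7.50 CPM in pgWAT male wells 1 to 4. The pgWAT female wells 1 to 6 had 9.60, 19.99, 15.2, 6.92, 7.41 and 6.51 CPM. In iWAT it ran from 4.63 over 11.1 to 21.5 CPM. Over all wells the log2 fold change was 0.36 (95% interval -0.22 to 0.94, adjusted p = 0.362). The 4 highest pgWAT values belonged to the 4 wells whose macrophage marker sum was above every iWAT well.

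Nr1h3 (ENSMUSG00000002108.11) had 41.7, 0, 65.3 and 15.0 CPM in pgWAT male wells 1 to 4. Female wells 1 to 6 had 28.8, 40.0, 28.2, 19.4, 37.0 and 16.3 CPM, and iWAT ran from 4.93 over 20.8 to 59.3. Male wells 1 and 3 were high for both genes and male wells 2 and 4 were low. The depot log2 fold change of Nr1h3 was 0.50 (95% interval -0.05 to 1.06, adjusted p = 0.167). It passed without pgWAT male replicate 2 (0.69, adjusted p = 0.0175). Among wells labelled female Nr1h3 rose in pgWAT (log2 fold change 1.21, SE 0.41, adjusted p = 0.0262). The call was lost with limma-voom (adjusted p = 0.069) or without pgWAT female replicate 2 (adjusted p = 0.0661) or 5 (adjusted p = 0.0745). Without the wells that went against or between their labels the value was 1.03 (adjusted p = 0.0437). Among wells labelled male it was -0.20 (adjusted p = 0.774) over all wells.

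The comparison was repeated without the 4 pgWAT wells of high macrophage marker sum, a choice made after the values were seen. They were also the pgWAT wells with Y-linked counts and no Xist, so every pgWAT well left in held Xist. Cebpa then changed sign and passed, at -0.86 (adjusted p = 0.0406), and Ebf1 also passed, at -0.65 (adjusted p = 0.00998). Nr1h3 moved to -0.46 (adjusted p = 0.299). Pparg (-2.03), Ebf2 (-1.25) and Klf4 (1.30) still passed, so that 5 of 6 members tested did, where 34.3% of all 9532 genes passed. Among wells labelled male, the 2 remaining pgWAT wells were those that went against their label. There Cebpa was -1.54 (adjusted p = 0.0249), Nr1h3 was -1.98 (adjusted p = 0.00556), and Klf4 missed the threshold at 0.78 (adjusted p = 0.154).

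Leaving out the 5 wells with mismatched or mixed sex-linked transcripts instead kept the pgWAT male wells 1 and 3. Cebpa in males was then 1.20 higher on the log2 scale in pgWAT (adjusted p = 0.0154, against 9.16% of genes passing), and over the sexes Nr1h3 passed at 0.81 (adjusted p = 0.0155, against 23.7%). In females Ebf1 passed as lower, at -0.97 (adjusted p = 0.0215, against 18.3%). The sign of the Cebpa difference among wells labelled male was thus opposite in these 2 selections of wells. Which of macrophage content, sex and depot moved with Cebpa and Nr1h3 cannot be told apart in these pgWAT wells, and the part of macrophages was not tested.

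**Figure D3:**
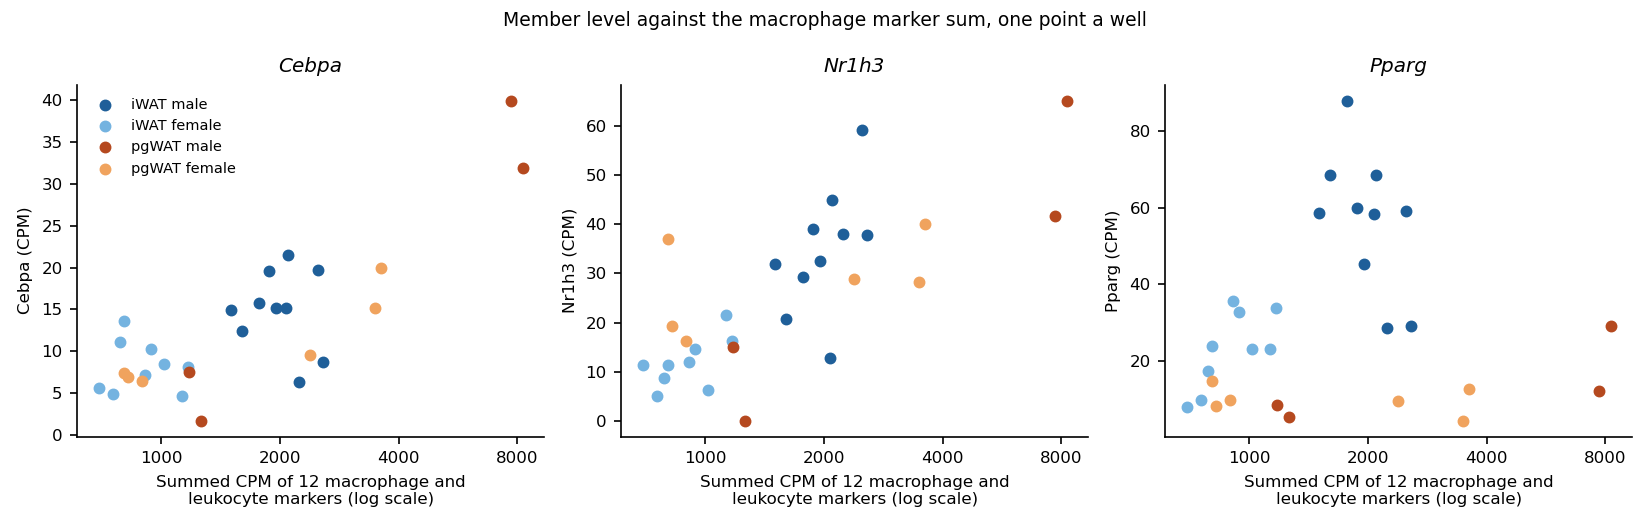
Level of Cebpa, Nr1h3 and Pparg in CPM (vertical axes) against the summed CPM of 12 macrophage and leukocyte markers (horizontal axis, log scale), 1 point a well, coloured by group. For Cebpa the pgWAT male wells at 7723 and 8270 are the 2 highest of all 29, whereas the pgWAT wells stay at 29.2 CPM of Pparg or below over the whole range.

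The remaining 4 members had too few counts for the main test. Zfp423 (ENSMUSG00000045333.16), a zinc finger factor that commits cells to the preadipocyte fate, had 105 counts over 19 iWAT wells and 16 over 10 pgWAT wells. Its level was 8.15 ± 4.88 CPM in iWAT (SD, n = 19) and 3.27 ± 3.13 in pgWAT (SD, n = 10), and all 10 pgWAT wells were below the iWAT mean. The ratio of counts, iWAT over pgWAT, was 2.96 (95% exact interval 1.74 to 5.36, counting error only). In a fit without the filter its log2 fold change was -1.64 (SE 0.48, adjusted p = 0.00865, edgeR), where 13.9% of 26512 genes passed. It was -2.65 (adjusted p = 0.0112) among wells labelled male, 2 of whose 4 pgWAT wells held Xist, and -0.63 (adjusted p = 0.632) among those labelled female. The edgeR test of the difference between these did not pass (adjusted p = 0.686), which says little with pgWAT wells against or between their sex labels.

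Cebpd (ENSMUSG00000071637.6), an early factor induced by glucocorticoid, had 33 counts in iWAT and 36 in pgWAT, at 2.42 ± 2.83 CPM in iWAT (SD, n = 19) and 6.48 ± 4.78 in pgWAT (SD, n = 10). After rounding it had no count in 7 of 10 iWAT male wells, while 9 of 10 pgWAT wells were above the iWAT mean. Only 51.7% of its deposited values were whole numbers, so a well without a count could still hold a fractional one. The ratio of Cebpd counts, pgWAT over iWAT, was 2.42 (95% exact interval 1.47 to 4.01, counting error only). The unfiltered log2 fold change was 1.31 (SE 0.50) and missed the threshold (adjusted p = 0.062). Cebpb (ENSMUSG00000056501.4) averaged 3.76 ± 2.84 CPM in iWAT (SD, n = 19) and 5.56 ± 4.65 in pgWAT (SD, n = 10), with an unfiltered log2 fold change of 0.53 (adjusted p = 0.619). Opposite-strand genes cover 20.7% of Cebpb's exon bases (Tmem189) and 15% of Cebpd's (Spidr), and strand use in the counting is not given in the sources used here. Klf15 (ENSMUSG00000030087.12) had 16 counts in all, spread over 11 of 29 wells, and a difference was not detectable at this depth (0.93, adjusted p = 0.551).

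The second comparison asked whether male and female iWAT cultures differ, the arm in which all sex labels were matched. Pparg, Nr1h3 and Ebf2 were higher in male wells. Of the 6 tested members these 3 passed, all higher in males, against 3.22% of all genes passing and 1.08% passing as higher. The median log2 fold change of the 6 was 0.80, beside 0.01 over all 8853 genes.

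Pparg averaged 56.4 ± 18.2 CPM in iWAT male (SD, n = 10) and 23.04 ± 10.01 in iWAT female (SD, n = 9), and 8 of 10 male wells were above every female well. The log2 fold change was 1.26 (SE 0.25, adjusted p = 0.00267), or 2.39-fold. Within plate column 7, which held 7 male and 4 female iWAT wells, it was 0.81 (adjusted p = 0.1). Nr1h3 averaged 34.6 ± 12.8 CPM in males (SD, n = 10) and 11.9 ± 5.13 in females (SD, n = 9), again with 8 of 10 male wells above every female well. Its log2 fold change was 1.5 (SE 0.34, adjusted p = 0.00918), or 2.84-fold, and 1.25 within column 7 (adjusted p = 0.0269). The macrophage marker sum was higher in every iWAT male well than in every iWAT female well, so it moved with these differences. Most of that sum was Lyz2. Singly, 2 of 10 tested macrophage markers, Lyz2 and Csf1r, passed as higher in males, where 1.08% of all genes did. Epithelial markers moved with sex as well, all 4 tested being lower in males, with sums of 7 markers from 0 to 8.31 CPM in male wells and from 44.1 to 2297 in female wells. Smooth muscle and pericyte markers were lower in males in 3 of 4 tested, with sums from 616 to 851 CPM in male and from 841 to 3578 in female wells. Of the 6 fibroblast markers Col1a1 (-1.23) and Lum (-1.38) were lower. Of 6 tested endothelial markers 1, Egfl7, passed as higher in males (0.64, adjusted p = 0.0324). The endothelial sum of 7 markers was 163 ± 35.4 CPM in male (SD, n = 10) and 105 ± 22.1 in female wells (SD, n = 9). In its single-cell data the study reports Pparg as highest in endothelial cells. The part of these cells was not tested.

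Ebf2 averaged 70.2 ± 9.15 CPM in iWAT male (SD, n = 10) and 46.0 ± 9.84 in iWAT female (SD, n = 9), and 9 of 10 male wells were above every female well. The log2 fold change of 0.60 (SE 0.17, adjusted p = 0.0473) was close to the threshold and passed in 10 of 29 fits that each left out 1 well, with adjusted p between 0.0216 and 0.0842. It missed the threshold with total counts alone as the scaling (adjusted p = 0.0595) and without the filter on low counts (adjusted p = 0.0573). Within column 7 it was 0.73 (adjusted p = 0.0416). Cebpa had 15.0 ± 4.80 CPM in males (SD, n = 10) and 8.22 ± 3.02 in females (SD, n = 9), a log2 fold change of 0.83 that missed the threshold (adjusted p = 0.214). It passed with the plate column as a factor (1.35, adjusted p = 0.0235). Klf4 had 11.6 ± 4.10 against 6.51 ± 2.57 CPM (0.76, adjusted p = 0.129). Ebf1 had 47.2 ± 12.5 against 58.9 ± 14.4 CPM (-0.32, adjusted p = 0.5).

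In pgWAT, by label, none of the 6 tested members passed between male and female wells, at an adjusted p or at an unadjusted p of 0.05, and none with limma-voom or the edgeR likelihood ratio test. DESeq2 gave an adjusted p for Ebf1 and Ebf2 alone, and neither passed. Of all genes 0.0113% passed. The 95% intervals were wide, from -0.47 to 1.39 for Pparg and from -0.79 to 0.99 for Nr1h3. Without the 5 mismatched or mixed wells, 2 male wells were compared with 3 female wells, and Cebpa was higher in males (log2 fold change 2.29, adjusted p = 0.00119, against 5.63% of genes). Those 2 male wells were also the ones with the highest macrophage sums. The test of whether the sex difference itself differed between depots passed for none of the 6 members and for 0.181% of all genes. Nr1h3 had the lowest unadjusted p of these (-1.41, p = 0.0193 in the edgeR fit, adjusted p = 0.461) and was the only member under an unadjusted 0.05. DESeq2, limma-voom and the likelihood ratio test also passed none. Because 5 pgWAT wells went against or between their sex label, missing the threshold in this interaction test says little.

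**Figure D4:**
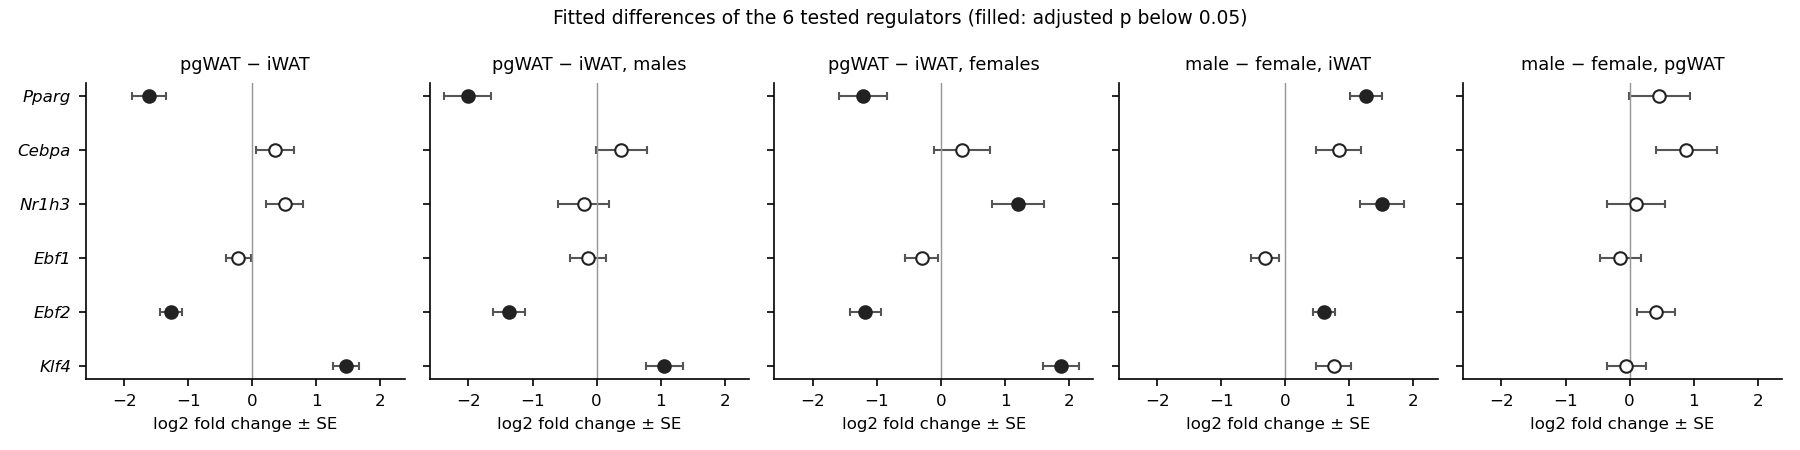
Log2 fold change ± SE (horizontal axes) of the 6 tested regulators in 5 contrasts of the same fit, filled where the adjusted p passed 0.05. Pparg and Ebf2 are negative and Klf4 positive in all 3 depot panels, and Pparg, Nr1h3 and Ebf2 are the filled points of the iWAT sex panel.

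Genes of the surrounding pathway were counted next, over lists chosen with earlier results of these data known. Their counts between depots stand beside the 38.1% of all genes that passed (20.1% higher, 17.9% lower), and a share near these is no result about a list. Between depots, genes known as targets of PPARγ and C/EBPα moved in either direction. Of 30 listed, 13 were tested, 6 rose and 3 fell, with a median of 0.81 on the log2 scale beside 0.01 over all genes. Hp, which encodes the plasma protein haptoglobin, rose by 4.50 (adjusted p = 3.64e-14). G0s2, an inhibitor of the lipase ATGL, rose by 2.26. Plin4, a lipid droplet coat protein, fell by 2.55 (adjusted p = 4.8e-05). Fabp4, the fatty acid binding protein of adipocytes and macrophages, averaged 89.7 ± 56.2 CPM in iWAT (SD, n = 19) and 82.5 ± 38.5 in pgWAT (SD, n = 10) and did not pass (0.25, adjusted p = 0.246). Without the 4 pgWAT wells of high macrophage sum the same list gave 4 higher and 5 lower of 14, with a median of -0.24. In that fit 34.3% of all genes passed. Markers of mature adipocytes were low on average. Their sum over 7 genes was 22.3 ± 22.6 CPM in iWAT (SD, n = 19) and 29.3 ± 34.1 in pgWAT (SD, n = 10), and it reached 100.7 CPM in 1 pgWAT well. The hormone gene Adipoq had 7.10 ± 9.29 CPM in iWAT (SD, n = 19) and 5.00 ± 5.50 in pgWAT (SD, n = 10). The lipid droplet gene Plin1 had 2.61 ± 3.3 and 1.85 ± 3.11. Means of Cfd and Retn went the other way. Cfd, the only one of the 7 tested, did not pass (0.99, adjusted p = 0.174). Retn had means of 0.42 CPM in iWAT male and 0.23 in iWAT female, and 6.68 and 2.13 in pgWAT male and female.

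By sex within iWAT, 7 of the 13 tested targets were higher in males, none was lower and 6 did not pass, against 3.22% of all genes passing and 1.08% as higher. The fits that each left out 1 well gave 4 to 8. The other 17 of the 30 were not tested. The macrophage markers Lyz2 (1.25) and Csf1r (0.95) and the endothelial marker Egfl7 (0.64) were also higher in males, and the part of these cells was not tested. Hp was higher by 1.98 (adjusted p = 0.0206) and Fabp4 by 1.9 (adjusted p = 1.31e-07). Fabp4 ran from 95.6 to 179 CPM in male wells and from 22.2 to 49.8 in female wells, without overlap. Plin1 had 25 counts over 10 male wells and 1 count over 9 female wells, and Adipoq had 69 and 14, neither being tested.

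Targets of LXR, of which Nr1h3 encodes the α form, rose in pgWAT in 7 of 9 tested, and none fell (median 0.89). Nr1h2, the other LXR gene, was higher in pgWAT (0.56, adjusted p = 0.00285). By sex in iWAT it did not pass (-0.50, adjusted p = 0.122). Apoe, a lipoprotein of lipid export, rose by 2.33 (adjusted p = 1.05e-08). Pltp, the phospholipid transfer protein, rose by 2.14 and the phosphodiesterase Smpdl3a by 1.31. Srebf1, the lipogenic factor under LXR control, had 75.2 ± 26.7 CPM in iWAT (SD, n = 19) and 95.4 ± 32.2 in pgWAT (SD, n = 10) and did not pass (0.37, adjusted p = 0.0876). Several of these genes are also known in macrophages, and 6 of the 10 macrophage markers tested rose in pgWAT. Without the 4 wells of high macrophage sum, 8 of the 9 rose (median 0.82), where 34.3% of all genes passed. Those 4 were also the pgWAT wells with Y-linked counts and no Xist, and the part of macrophages was not tested. In iWAT, where Nr1h3 was higher in males, none of the 9 passed by sex (median -0.17). DESeq2 called 2 of them lower in males, and the share of all genes is not given for that fit.

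Factors known to restrain adipogenesis moved in either direction between depots, 9 higher and 5 lower of 18 tested (median 0.30). Dlk1 (Pref-1), the preadipocyte inhibitor, was present in every iWAT well (410 counts, 8.44 to 82.2 CPM) and had 4 counts in 2 of the 10 pgWAT wells. The ratio of counts, iWAT over pgWAT, was 46.2 (95% exact interval 17.9 to 170, counting error only). Trib3, a stress-induced pseudokinase, rose by 1.97 in pgWAT (adjusted p = 3.09e-06), and Gata2, a factor that keeps preadipocytes undifferentiated, rose by 1.97 (adjusted p = 4.47e-05). Zfp521, the paralog and known antagonist of Zfp423, rose by 0.75 (adjusted p = 0.00535), from 19.9 ± 7.94 CPM in iWAT (SD, n = 19) to 34.2 ± 14.6 in pgWAT (SD, n = 10). With total counts alone as the scaling, 5 of this list rose and 5 fell. The share of all genes is not given for that fit, so these counts are no result about the list. Without the 5 mismatched or mixed wells 3 rose and 2 fell, where 23.7% of all genes passed. By sex within iWAT, where 3.22% of all genes passed, 2 rose and 2 fell in males, among them Trib3 (-2.24, adjusted p = 0.00223) and the inhibitor of DNA binding Id3 (1.21, adjusted p = 4.12e-06).

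Of 17 other adipogenic factors tested, 5 rose and 2 fell in pgWAT. The nuclear factors Nfib (1.06) and Nfia (1.02) rose, and Egr2 (Krox20), known to act upstream of Cebpb, fell by 1.94 (adjusted p = 9.01e-10). Rxra, the partner receptor of PPARγ and LXR, did not pass (0.07, adjusted p = 0.714). None of this list passed by sex in iWAT with edgeR, and 1 did with DESeq2, for which the share of all genes is not given. Of 13 tested relatives of the members, 5 rose and 1 fell. Klf10 fell by 1.34, whereas Klf9 (1.00) and Klf3 (0.81) rose, and Klf7 was higher in iWAT male (0.59, adjusted p = 0.0173). Genes induced by glucocorticoid gave 3 higher and 1 lower of 7, with Klf9 and the metallothionein Mt2 (0.93) higher and the kinase Sgk1 lower (-0.75). Prdm16, a regulator of the beige programme, was not tested and had 6.70 ± 4.39 CPM in iWAT (SD, n = 19) and 3.85 ± 2.46 in pgWAT (SD, n = 10).

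**Figure D5:**
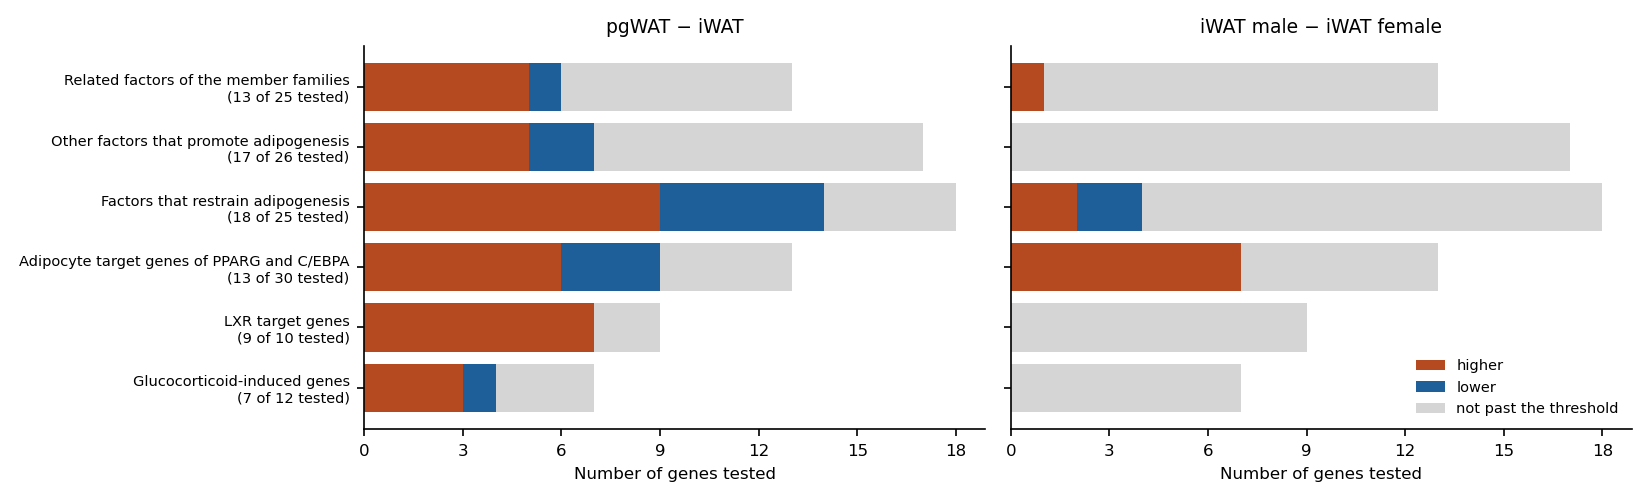
Number of tested genes (horizontal axis) of 6 lists that were higher, lower or not past the threshold, for pgWAT minus iWAT (left) and iWAT male minus iWAT female (right). Factors that restrain adipogenesis split into 9 higher and 5 lower between depots, LXR targets into 7 and 0, and the adipocyte targets into 7 and 0 by sex in iWAT.

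Genes whose level moved most like each tested member were sought among 5275 well-measured genes, as a description over 29 wells that share depot, sex and plate. Pparg was most like the proliferin Prl2c5 (Pearson r 0.88), Anxa1 (0.87) and Nqo1 (0.84), with 0.81, 0.76 and 0.68 over the 19 iWAT wells. Cebpa was most like Slc11a1 (0.81), Gpnmb (0.79) and Gm49339 (0.77), of which the first and the second are known in macrophages, with 0.60, 0.60 and 0.57 over the iWAT wells. Klf4 was most like Cst3 (0.88), Gabarap (0.87) and S100a1 (0.85), with 0.74, 0.75 and 0.70 over the iWAT wells. Ebf2 was most like Ncapd2 (0.85), Gfra2 (0.82) and Mcm4 (0.82), with 0.73, 0.42 and 0.51 over the iWAT wells. Nr1h3 was most like Fam20c (0.83), Gstm1 (0.78) and Unc5b (0.76), with 0.86, 0.81 and 0.79 over the iWAT wells. Ebf1 had the weakest likeness over all wells, to Pear1 (0.66), Hic1 (0.66) and Vps51 (0.64), with 0.60, 0.69 and 0.67 over the iWAT wells.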

How the data were processed

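RNA was measured in 29 wells of cultured SVF. The authors trimmed reads, quantified them with Salmon (version 1.9.0 in the submitters' processing notes) on a Gencode transcriptome of GRCm39 and summed transcripts to genes. The deposited values are expected counts per gene, not normalized, with reads with and without molecular identifiers together. They were rounded. Symbols came from a GRCm38 annotation by Ensembl ID (52029 of 56953 features). CPM used library totals times TMM factors (0.949 to 1.06).

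Tests used edgeR 4.0.16 (R 4.3.3, filterByExpr, quasi-likelihood, two-sided, 1 mean per group, Benjamini-Hochberg over 8853 genes, threshold 0.05). Alternatives were limma 3.58.1 (voom), DESeq2 1.42.0, the likelihood ratio test, other scalings, no filter, the plate column, left-out wells and the longest transcript. The fit was tested on simulated data. Members and lists were chosen with earlier results of these data known. Named are all members, the 3 most changed called genes of each list between depots and 2 by sex in iWAT, fixed controls, and the 3 most alike genes with average log2 CPM of at least 5. Counts were not altered for batch.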

Additional observations from a re-analysis of the deposited data

Results flagged for a closer look

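Over 40 sets of a member's CPM values in a group, 3 held a value set apart from the rest by more than Dixon's 95% limit, where chance gives about 1 in 20. All 3 were in iWAT male. Cebpb had 12.7 CPM in replicate 8, from 5 counts, where the next well had 5.87. Ebf2 had 49.9 CPM in replicate 7 (24 counts), the lowest of its group, where the next had 64.9. Klf15 had 3.17 CPM in replicate 9, from 1 count, where the next had 1.00.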

How the results depend on the processing

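The number of members called between depots was 3, where 38.1% of all genes passed. It was 5 without the 4 pgWAT wells of high macrophage sum, where 34.3% did. Among wells labelled female it was 4, where 26.8% of all genes passed, and 2 under limma-voom. By sex in iWAT it was 3, where 3.22% of all genes passed. It was 4 with the plate column as a factor or without the 5 mismatched or mixed wells, Cebpa then passing (adjusted p = 0.0235 and 0.0404). The share of all genes is not given for these 2 fits or for limma-voom, so their counts are no result about the members. By sex in pgWAT it was 0, where 0.0113% of all genes passed, and 1 without the 5 mismatched or mixed wells, where 5.63% did. For the depot by sex interaction it was 0, where 0.181% of all genes passed, and the mismatched or mixed pgWAT wells limit what this 0 can say. Without the 4 wells of high macrophage sum it was 1 (Nr1h3, -3.04, adjusted p = 0.0109). In that fit every pgWAT well held Xist, whether labelled male or female, so it cannot tell whether a sex difference depends on depot. Cebpa reversed without those 4 wells, to -0.86 between depots and to -1.54 in males; the cause was not tested. Leaving out 1 well at a time gave 3 to 4 calls between depots, 3 to 3 in males, 3 to 4 in females, 2 to 3 by sex in iWAT, and 0 to 0 by sex in pgWAT and for the interaction. Other scalings moved the median of all genes by at most 0.05 on the log2 scale. No paired analysis was possible because the labels give the wells no replicate number. Low counts limit Cebpb, Cebpd, Zfp423 and Klf15.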
